A study of Mus musculus with 20 samples.

Results

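NRF2, its inhibitor KEAP1 and the enzymes that make and recycle antioxidants were described here as 36 genes, taken by name from the array annotation of the non-control spots. All 36 were measured, by 57 probes of which 56 passed the filter on dim probes, within a table of 17200 rows built from 41174 probes. None of the members entered through 1 group alone, since each was well above background on all 10 responder and all 10 non-responder arrays. The arrays held liver RNA of male mice of the inbred strain C57BL/6J, which is prone to obesity on rich food. Fat supplied 60% of calories in the diet of every mouse from weaning on, and sampling was at 6 weeks. The 10 responders were susceptible to diet-induced obesity and the 10 non-responders were resistant, per the labels. The labels give neither the body weights behind that division nor the hour of sampling, and the series has no group on a low-fat diet. No label ties a sample to an animal, so that each p-value rests on the spread among these samples, which may be in part technical.

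NRF2, encoded by Nfe2l2, is a transcription factor that KEAP1 holds in the cytoplasm and directs to degradation. Oxidants and electrophiles modify KEAP1, NRF2 then accumulates in the nucleus with small MAF proteins, and it binds antioxidant response elements before genes for glutathione synthesis, the thioredoxin system and drug detoxification. The liver, which clears reactive metabolites and oxidises large amounts of fatty acid, is rich in these enzymes, many of which are also expressed without any NRF2 stimulus.

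The antioxidant response element was looked for as the core TGACNNNGC, on both strands, in RefSeq promoter windows of 300 bases that reach from 250 before to 50 after each gene start (GRCm38.p6). Of the 30 members with a window, 7 held the core: Gclm, Mgst1, Nfe2l2, Prdx1, Sod1, Srxn1 and Txnrd1. Over all genes with a window, 14.0% held it. The matches that lie wholly before the start are shown, because NRF2 is known to bind this element, with the core or its reverse complement in capitals and 5′ to 3′ along the gene's strand.
Nfe2l2, chr2:75704885-75704913, minus strand: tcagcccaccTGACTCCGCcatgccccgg
Gclm, chr3:122245413-122245441, plus strand: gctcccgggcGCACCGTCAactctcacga
Txnrd1, chr10:82859104-82859132, plus strand: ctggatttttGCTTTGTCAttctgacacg
Prdx1, chr4:116685456-116685484, plus strand: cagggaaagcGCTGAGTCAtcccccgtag
Mgst1, chr6:138140461-138140489, plus strand: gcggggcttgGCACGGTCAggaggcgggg
Sod1, chr16:90220696-90220724, plus strand: gccaaggtggGCGTGGTCAgactcaggcc
The core of Nfe2l2 starts 240 bases before the gene start. Such a match is a description of letters, not a bound site.

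The members were read by 60-base probes. The probes of Keap1, Gss and Prdx5 are shown because these genes were among those with the smallest p and because each probe spans an intron in the array's mm9 coordinates, so that it reads spliced RNA.
Keap1, chr9:21035292-21035732, minus strand: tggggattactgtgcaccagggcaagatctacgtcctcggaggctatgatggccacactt
Gss, chr2:155389432-155390531, minus strand: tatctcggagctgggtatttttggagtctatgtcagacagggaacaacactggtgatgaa
Prdx5, chr19:6981601-6982035, minus strand: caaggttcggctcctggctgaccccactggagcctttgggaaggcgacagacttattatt
The probes of Aldh1a1 and Aldh1a7, close relatives, shared no run longer than 8 bases.

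An array had 55.8% to 71.2% of its spots well above background and none saturated. The hybridisations form 2 slide series, the first with 6 non-responders and 4 responders and the second with 4 and 6. All 8 hepatocyte markers were measured, at a mean of 6.75 to 7.83 across livers. Of 7 adipose markers measured, 6 were lower in responders and 5 had an unadjusted p under 0.05. Their mean ran from -2.48 to 0.31 in responders and from -1.64 to 1.62 in non-responders. Of 8 stellate cell and fibroblast markers, all 8 were lower in responders and 4 had an unadjusted p under 0.05. The sign was the same within both slide series for 5 of the 8. The mean of the 8 ran from 0.967 to 2.04 in responders and from 1.22 to 2.27 in non-responders. All 5 proliferation markers were lower in responders as well, 3 of them at an unadjusted p under 0.05, with a mean of -3.75 to -2.10 in responders and -3.73 to -1.51 in non-responders. Of 9 targets of PPARA, the factor that drives fatty acid oxidation, 8 were lower in responders and 1 had an unadjusted p under 0.05. None of these genes passed the adjusted threshold, and 3.73% of all rows were lower in responders at an unadjusted p under 0.05. In other lists most markers were higher in responders, 6 of 7 pericentral hepatocyte, 5 of 8 hepatocyte, 4 of 6 cholangiocyte and 3 of 3 erythroid ones. Most were lower among macrophage markers (6 of 7) and pancreatic acinar markers (11 of 12). None of these further markers had an unadjusted p under 0.05. The mean of 12 pancreatic acinar markers ran from -5.27 to 5.28 in responders and from -4.36 to 5.29 in non-responders. The part of these cells and programmes in the members' differences was not tested. A fit with Adipoq as a further term is given with Nqo1 and does not test it. In whole liver RNA, fewer cells of a type and less RNA per cell cannot be told apart.

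Levels are log2 signal relative to the array's 75th percentile, and every difference is responder minus non-responder with the slide series as a term, given with its standard error (SE). A probe's level cannot be set against that of another probe, so genes are not ordered by level.

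Livers of responders and non-responders had no member whose difference passed the threshold (limma, Benjamini-Hochberg over all 17200 rows, adjusted p under 0.05). The smallest adjusted p among the members was 0.591. The share called over all rows was 0% as well, with a smallest adjusted p of 0.273. The differences of the members were small, with 18 higher and 18 lower in responders and a median of 0.009, where 48.8% of all rows were higher and the median was -0.003. That split moved with the processing: 25 of 36 were higher with median scaling (55.5% of all rows), 24 with the mean of all kept probes of a gene (51.2%) and 27 in the first slide series alone (53% of its rows), but 3 with normexp background correction (52.8%). The signs also rest on the probe chosen. Of 20 other kept probes, in 13 members, 10 gave the opposite sign to the probe used, in 8 members. At an unadjusted p under 0.05 stood 3 of 36 members, against 7.97% of all rows. They were Prdx5 and Msra, higher in responders (4.24% of all rows), and Nqo1, lower in responders (3.73% of all rows). The ranges of the groups overlapped for every member. Over all rows, 0.00581% had ranges that did not overlap.

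**Figure D1:**
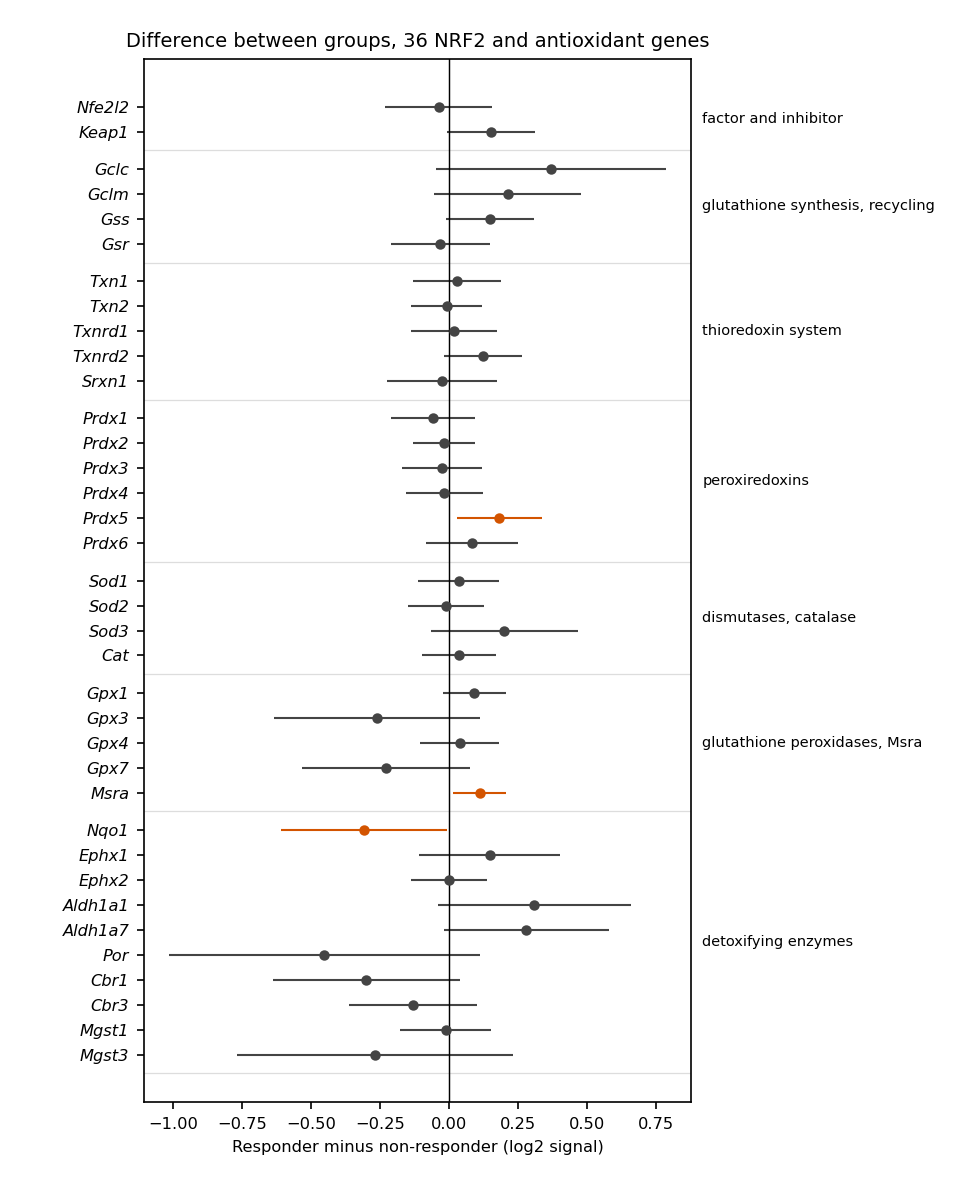
Responder minus non-responder difference of each of the 36 members on the log2 scale (points) with its 95% confidence interval (lines), ordered by role. Members with an unadjusted p under 0.05 are orange. The intervals of Prdx5, Msra and Nqo1 are those that miss 0, and the widest is that of Por.

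Nfe2l2, the gene of the factor itself, lay at 2.70, 2.96 and 3.33 (lowest, median and highest) in responders and at 2.53, 2.82 and 3.39 in non-responders. The responder values lay inside the range of the non-responders. The difference was -0.04 ± 0.092 (SE, n = 10 and 10; limma, unadjusted p = 0.681), and its 95% interval ran from -0.23 to 0.15. Both further probes of Nfe2l2 gave differences of the opposite sign, 0.001 and 0.06, also within their SE.

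Keap1, the inhibitor, lay at 2.99, 3.21 and 3.48 in responders and at 2.82, 3.08 and 3.37 in non-responders. Most of each range was shared. The difference was 0.15 ± 0.076 (SE, n = 10 and 10; limma, unadjusted p = 0.0590), and 7 of 10 responders were above the mean of non-responders in their own series.

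Of the 4 glutathione genes, 3 were higher in responders, with differences from -0.03 to 0.37 and none at an unadjusted p under 0.05. Gclc, the catalytic subunit of glutamate-cysteine ligase and so of the limiting step of glutathione synthesis, lay at 3.47, 4.58 and 4.92 in responders and at 3.45, 3.99 and 4.58 in non-responders. The lowest liver of each group was about equally low, while the middle of the non-responders lay beneath that of the responders. The difference was 0.37 ± 0.20 (SE; limma, unadjusted p = 0.0783), with a 95% interval from -0.05 to 0.79.

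Gclm, the modifier subunit of the same ligase, lay at 1.01, 2.14 and 2.36 in responders and at 1.66, 1.83 and 2.04 in non-responders. Responder 7 was lower than every other liver. The difference was 0.21 ± 0.13 (SE), and 9 of 10 responders were above the mean of non-responders in their own series. Without responder 7, singled out as the extreme liver, the difference was 0.30, with an unadjusted p of 0.000451 and an adjusted p of 0.387 (limma). Within the slide series the difference was 0.40 in the first, where the groups did not overlap (2.46% of all rows did not overlap there). It was 0.02 in the second, which holds responder 7. The other kept probe of Gclm gave 0.08 ± 0.095 over all livers (SE; unadjusted p = 0.386, limma fit over probes).

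Gss, glutathione synthetase, which adds glycine in the last step, lay at 1.94, 2.36 and 2.60 in responders and at 1.90, 2.25 and 2.50 in non-responders. The ranges almost coincided. The difference was 0.15 ± 0.076 (SE; limma, unadjusted p = 0.0660). Gsr, the reductase that regenerates reduced glutathione, differed by -0.03 ± 0.085. It has a value on 19 arrays, since its spot on the other was marked as an outlier and was dropped from the fit. A further kept probe of Gsr gave 0.15 ± 0.11 (SE), of the opposite sign, and another gave -0.03 ± 0.10.

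In the thioredoxin system, which returns oxidised protein thiols to their reduced form, 3 of 5 members were higher in responders and all 5 differences lay between -0.03 and 0.12. Txnrd1, the cytosolic thioredoxin reductase, lay at 3.60, 4.01 and 4.18 in responders and at 3.77, 3.92 and 4.13 in non-responders. The groups overlapped throughout, with a difference of 0.02 ± 0.074 (SE). Srxn1, sulfiredoxin, which repairs over-oxidised peroxiredoxins, lay at 2.54, 2.84 and 3.03 in responders and at 2.44, 2.83 and 3.14 in non-responders. The medians were almost equal, and the difference was -0.03 ± 0.096 (SE). The 95% interval was -0.14 to 0.17 for Txnrd1 and -0.23 to 0.17 for Srxn1. The mitochondrial reductase Txnrd2 differed by 0.12 ± 0.067, cytosolic thioredoxin Txn1 by 0.03 ± 0.076 and mitochondrial Txn2 by -0.01 ± 0.062.

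Among the peroxiredoxins, thiol peroxidases that reduce hydrogen peroxide, 2 of 6 were higher in responders. Prdx5, found in mitochondria, peroxisomes and cytosol, lay at 5.06, 5.32 and 5.46 in responders and at 4.62, 5.18 and 5.48 in non-responders. The responders sat in the upper part of the non-responder range, and all 10 were above the mean of non-responders in their own series. The difference was 0.18 ± 0.074 (SE; limma, unadjusted p = 0.0239, adjusted p = 0.591), and the exact permutation within slide series over 44100 arrangements gave p = 0.00898, two-sided and unadjusted. Non-responder 10 was the lowest liver, and without it the difference was 0.12 (unadjusted p = 0.0644, limma). The rest differed by -0.06 ± 0.073 (Prdx1), -0.02 ± 0.053 (Prdx2), -0.03 ± 0.069 (Prdx3, mitochondrial), -0.02 ± 0.066 (Prdx4, of the endoplasmic reticulum) and 0.08 ± 0.079 (Prdx6). Prdx6 had 4 probes, all higher in responders, and a dimmer one gave 0.26 ± 0.080 (unadjusted p = 0.00388, limma fit over probes). Both other probes of Prdx2 were higher in responders, by 0.06 and 0.12, against the sign of the one used.

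The superoxide dismutases, which turn superoxide into hydrogen peroxide, and catalase, which breaks that down in peroxisomes, showed small differences. Sod1, the cytosolic enzyme, differed by 0.03 ± 0.070 (SE) and mitochondrial Sod2 by -0.01 ± 0.066. Extracellular Sod3 differed by 0.20 ± 0.13 and Cat by 0.03 ± 0.065.

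Of the glutathione peroxidases, Gpx1 of the cytosol differed by 0.09 ± 0.054 (SE) and Gpx4, which reduces lipid peroxides in membranes, by 0.04 ± 0.068. The secreted Gpx3 differed by -0.26 ± 0.18 and Gpx7, of the endoplasmic reticulum, by -0.23 ± 0.15. Msra, which reduces oxidised methionine, lay at 4.81, 4.89 and 5.03 in responders and at 4.62, 4.77 and 4.92 in non-responders. The lowest responder was above the non-responder median, and all 10 responders were above the mean of non-responders in their own series. The difference was 0.11 ± 0.045 (SE; limma, unadjusted p = 0.0252, adjusted p = 0.591), a 1.08-fold change. The exact permutation within slide series gave p = 0.00664 (two-sided, unadjusted). Shares over all rows were not worked out for the exact p or for such counts of responders, here or for other members. Msra was also one of the steadiest rows on the array, with a residual SD of 0.0783, at the 0.483 percentile of all rows.

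**Figure D2:**
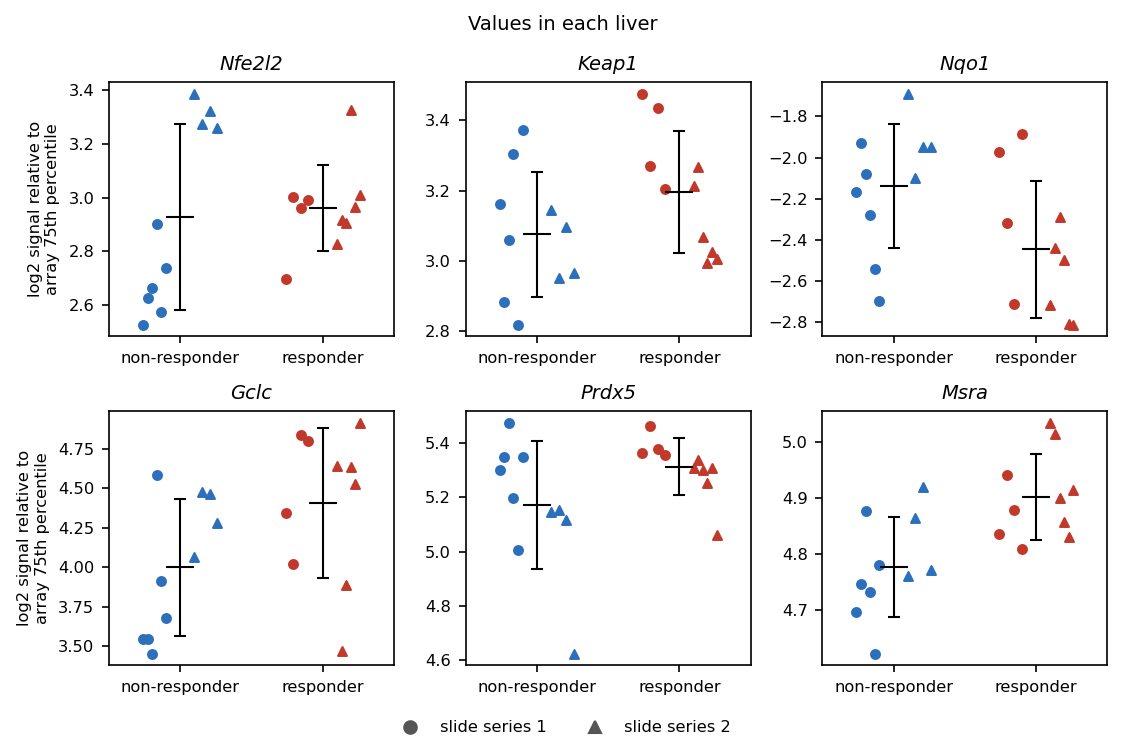
Level of 6 members in each of the 20 livers (log2 signal relative to the array's 75th percentile), with circles for the first and triangles for the second slide series. Bars are mean and SD over 10 livers. For Nfe2l2 and Nqo1 the order of the group means turns between the slide series, while for Prdx5 and Msra the responders are higher in both.

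Detoxifying enzymes made up 10 members, 3 higher in responders and 7 lower. Nqo1, a quinone reductase widely used as a readout of NRF2 activity, lay at -2.81, -2.47 and -1.88 in responders and at -2.70, -2.09 and -1.69 in non-responders. The medians stood apart while the ranges overlapped, and 2 of 10 responders were above the mean of non-responders in their own series. The difference was -0.31 ± 0.14 (SE; limma, unadjusted p = 0.0448), a 1.24-fold lower level. The exact permutation within slide series gave p = 0.0563 (two-sided). With the adipose marker Adipoq as a further term the difference was -0.20 (unadjusted p = 0.218, limma), against 0.19 for Prdx5 and 0.09 for Msra in the same fit. Most adipose markers were themselves lower in responders, so such a term can take up part of the group difference. The part of adipose cells was not tested by this fit.

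Aldh1a7, an aldehyde dehydrogenase of liver, lay at 4.67, 4.89 and 5.33 in responders and at 3.88, 4.55 and 5.22 in non-responders. The non-responders spread more widely, reaching down in livers that had no counterpart among responders, and all 10 responders were above the mean of non-responders in their own series. The difference was 0.28 ± 0.14 (SE; limma, unadjusted p = 0.0661), and without non-responder 10, the lowest liver, it was 0.16 (unadjusted p = 0.198, limma). Its relative Aldh1a1, the retinaldehyde dehydrogenase, differed by 0.31 ± 0.17, and by 0.12 without non-responder 10. Ephx1, the microsomal epoxide hydrolase, differed by 0.15 ± 0.12 and Ephx2, the soluble one, by -0.001 ± 0.066.

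Por, the reductase that passes electrons to the microsomal P450 enzymes, lay at 6.00, 6.71 and 7.998 in responders and at 6.41, 7.22 and 8.06 in non-responders. Both groups covered most of the same wide range, and the difference was -0.45 ± 0.27 (SE). The carbonyl reductases differed by -0.30 ± 0.16 (Cbr1) and -0.13 ± 0.11 (Cbr3). The microsomal glutathione transferases differed by -0.01 ± 0.079 (Mgst1) and -0.27 ± 0.24 (Mgst3).

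In the wider NRF2 pathway, 38 of 41 further genes were tested. None had an unadjusted p under 0.05, against 7.97% of all rows, and 19 were higher and 19 lower, with a median difference of 0.0002. The smallest p belonged to Osgin1, an oxidative stress growth inhibitor, at 0.61 ± 0.30 (SE; limma, unadjusted p = 0.0548). Next came the efflux pump Abcc4 at -0.24 ± 0.13 and the heme oxygenase Hmox1, a strongly inducible target, at -0.66 ± 0.38. Pgd and Me1, which supply NADPH, differed by 0.17 ± 0.099 and 0.31 ± 0.19, and the biliverdin reductase Blvra by 0.13 ± 0.080.

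More members passed between the slide series than between the groups. Between the series, 9 of 36 members differed (limma, adjusted p under 0.05), against 30.2% of all rows. The only higher one in the second series was Nfe2l2, by 0.36 ± 0.092 (17.6% of all rows were higher). The 8 lower ones, against 12.7% of all rows, were Mgst3 by -0.82 ± 0.24, Sod3 by -0.77 ± 0.13, Sod1 by -0.33 ± 0.070, Cbr3 by -0.33 ± 0.11, Ephx2 by -0.27 ± 0.066, Gsr by -0.25 ± 0.085, Prdx5 by -0.20 ± 0.074 and Gpx1 by -0.18 ± 0.054. The series were told apart by slide barcode, and the arrays of each were scanned on 1 day of its own, per the file headers. Whether a series also differs in its animals or its RNA extraction cannot be told apart from that. With normexp background correction 1 member was called.

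The change of the group difference between series had an unadjusted p under 0.05 (limma interaction) in 2 of 36 members, Nfe2l2 and Nqo1, against 9.67% of all rows. In the first series Nfe2l2 was 2.91 ± 0.14 (SD, n = 4) in responders and 2.67 ± 0.13 (SD, n = 6) in non-responders. In the second it was 2.99 ± 0.17 (SD, n = 6) in responders and 3.31 ± 0.058 (SD, n = 4) in non-responders. The 4 non-responders of the second series lay between 3.26 and 3.39, above all but 1 responder.

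Nqo1 was -2.22 ± 0.38 (SD, n = 4) in responders and -2.28 ± 0.29 (SD, n = 6) in non-responders of the first series. In the second series it was -2.59 ± 0.22 (SD, n = 6) in responders, all between -2.81 and -2.29. The non-responders there stood at -1.92 ± 0.17 (SD, n = 4), between -2.10 and -1.69, so that the groups did not overlap within that series. There 1.54% of all rows did not overlap. The difference was thus -0.67 there, against 0.06 among the first slides.

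The change in the difference between series was -0.56 for Nfe2l2 (limma interaction, unadjusted p = 0.000623, adjusted p = 0.345) and -0.73 for Nqo1 (unadjusted p = 0.00665, adjusted p = 0.416). Neither passed, and 0% of all rows did. Of 36 members, 21 had the same sign of difference in both series. For Gclc the 2 series gave 0.72 and 0.02, and for Por -0.70 and -0.20.

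**Figure D3:**
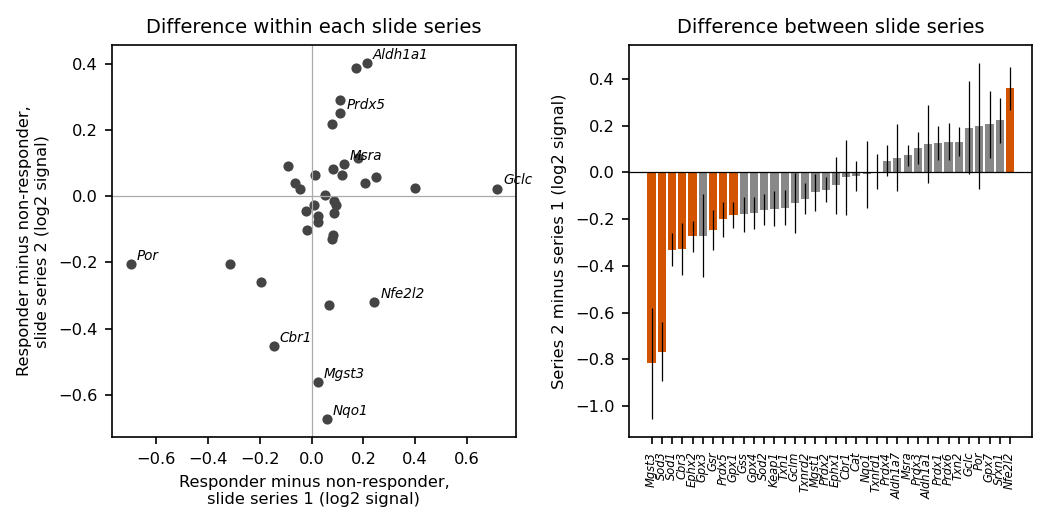
Left, the responder minus non-responder difference of each member within the first (x axis) and the second slide series (y axis), log2 signal. Nfe2l2 and Nqo1 lie to the right of 0 and below 0. Right, the second minus first series difference (bars) with its SE (lines), with the 9 members past an adjusted p of 0.05 in orange, Nfe2l2 alone among them above 0.

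Across the 20 livers, with the mean of each group in each series removed, the members did not follow Nqo1. Of 34 relations with a p, 0 passed for r or for rho (permutation within those sets, 100000 resamples, Benjamini-Hochberg), and the median r over 35 members was -0.033, with 17 above and 18 below 0. At an unadjusted permutation p under 0.05 for both r and rho stood Cbr1 (r = 0.59, rho = 0.58) and Por (r = 0.55, rho = 0.51), and for r alone Txn2 (r = 0.49, rho = 0.48). All 3 had an adjusted permutation p of 0.46 for r. Without the 2 livers farthest from the Nqo1 median, non-responder 7 and responder 9, r was 0.72 for Cbr1 and 0.54 for Por. The classical targets gave r = -0.41 (Gclc), -0.34 (Srxn1), -0.24 (Txnrd1) and -0.07 (Gclm), and Nfe2l2 itself -0.09.

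Some members did vary together, in a set of 595 pairs of 35 members that was added after the Nqo1 relations had been seen. Of these, 8 pairs passed for both r and rho (permutation within group and series, Benjamini-Hochberg), and all 8 kept their sign within both slide series. Por took part in 4 of the 8 and Gpx7 in 3. Many rows outside the members varied with them as well. With r and rho both at 0.6 or more in size stood 12.4% of all rows for Por and 9.79% for Gpx7. The share of passing pairs over all rows was not worked out, so the 8 pairs are not shown to be particular to the members.

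Por and Gpx7 correlated at r = 0.90 (rho = 0.87, adjusted permutation p = 0.0104 and 0.0131, n = 20). Txn2 correlated with Gpx7 at r = 0.88 and with Por at r = 0.83. Gclc ran against them, at r = -0.87 with Por (rho = -0.87, adjusted permutation p = 0.0104 and 0.0131, n = 20) and r = -0.83 with Gpx7. Livers with much Por had little Gclc. Over all 17063 other rows with a value on every array, 0.592% were related to Por as strongly as Gclc was, by the size of r, and 0.188% were related to Gclc as strongly as Por was. Responders 5 and 6, the highest responders in Por at 7.91 and 7.998, were the lowest responders in Gclc at 3.47 and 3.88.

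The relation of Gclc to Por was -0.89 in the first and -0.87 in the second series, -0.90 in responders and -0.83 in non-responders, and -0.85 without the 2 livers farthest from the Gclc median. With each liver left out in turn it ran from -0.91 to -0.86. The remaining pairs were Sod2 with Por (r = 0.75), Gss with Srxn1 (r = 0.75) and Gclm with Cat (r = 0.57). The count of passing pairs was 26 with median scaling and 4 with the authors' deposited values, which lack 2 of the members. With normexp correction, which narrowed the spread of some arrays strongly, r of Gclc with Por turned to 0.47.

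**Figure D4:**
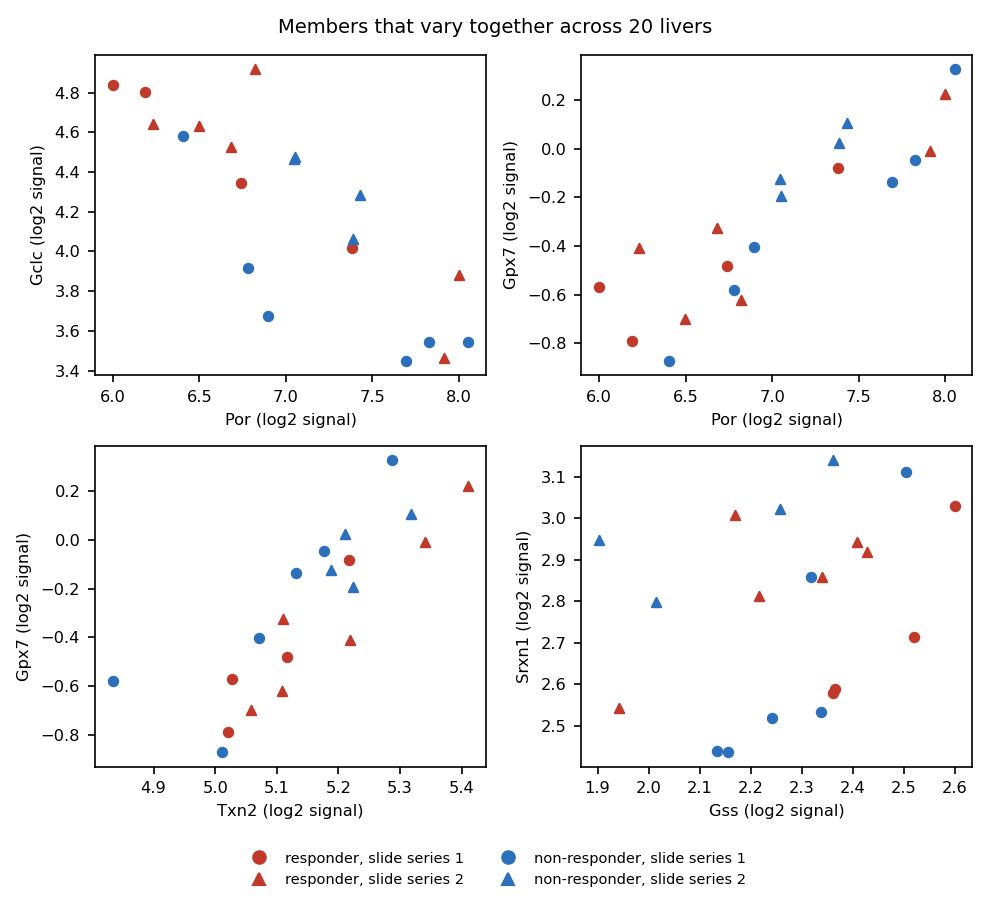
Levels of 4 pairs of members in the 20 livers (log2 signal), coloured by group and shaped by slide series. Gclc falls as Por rises, Gpx7 rises with Por and with Txn2, and Srxn1 rises with Gss within each slide series, where the second series sits higher in Srxn1.

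Some clock genes varied with these members. Their list was written after the pairs had been seen, and 14 of its genes were among the rows tested, while Npas2 was not. Of the 56 relations of these 14 with Por, Gclc, Gpx7 and Txn2, 30 passed for both r and rho (permutation, Benjamini-Hochberg). These relations overlap, since the 4 members were taken for varying together. Many rows of the array varied with them too: with r and rho both at 0.6 or more in size, a limit set after the relations were seen, Por had 7 of the 14 clock genes and 12.4% of all rows, Gclc 5 and 9.64%, Gpx7 4 and 9.79%, and Txn2 3 and 6.67%. Cry2, a repressor of the clock, correlated with Por at r = 0.88 (rho = 0.88, adjusted permutation p = 0.00187 and 0.00056, n = 20) and with Gclc at r = -0.80. Without the 2 livers farthest from the median of the member, these were 0.92 and -0.72. Hlf correlated with Por at r = 0.82 and Per2 at r = 0.75, while Dbp (r = 0.38) and Arntl (r = -0.33) did not pass. The part of the clock, or of the hour of sampling, in the variation of Por and Gclc was not tested. The 4 members were also set against the share of spots above background, the array's 75th percentile and 4 marker lists (adipose, pancreatic acinar, stellate and fibroblast, pericentral hepatocyte). None of these 24 relations passed (permutation, Benjamini-Hochberg). The strongest was Txn2 with the pancreatic acinar markers (r = -0.56, permutation p = 0.0282 unadjusted and 0.677 adjusted). The other marker lists, with the PPARA targets, were not compared in this way.

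Cry2 as a further term in the group comparison was an alternative added after these relations were seen. The SE of Gclc went from 0.20 to 0.15 with it, with a difference of 0.41 (limma, unadjusted p = 0.0114, adjusted p = 0.37). A term that varied with Gclc in these same livers (r = -0.80) takes up part of its spread. The smaller SE and p thus follow from the choice of Cry2, and the part of the clock was not tested by this fit. Members at an unadjusted p under 0.05 then numbered 8 of 36, where 9.84% of all rows stood in the same fit, and none passed the adjusted threshold.

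The members varied in how steady they were from liver to liver. Their median residual SD was 0.166, against 0.228 over all rows and 0.284 over the wider NRF2 pathway. The members were well above background on every array, which was not required of the other rows, and the sets were not matched for signal. Por was the most variable, at the 92.7 percentile of all rows, followed by Mgst3 at 89.7 and Gclc at 82.5. Msra at 0.483, Prdx2 at 3.45 and Gpx1 at 4.87 were the steadiest.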

How the data were processed

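The authors deposited the scanner output of each array. Agilent Feature Extraction has version 10.5.1.1 in it, per the file headers, while the submitters' processing notes name 9.1. Deposited intensities are linear, and the processed intensity used here is corrected for background and for trends across the array, per the file headers. The authors' own deposited table of intensities served as an alternative. Its making is not stated in the sources used.

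From the processed intensity, log2 was taken and each array's 75th percentile subtracted. Control spots and outlier spots were left out, spots of a probe were averaged, and a probe was kept if it was well above background on 5 or more arrays in 1 of the groups. Each gene was read by its brightest kept probe, which gave 17200 rows. The group comparison used limma 3.58.1 under R 4.3.3 (lmFit, eBayes, slide series as a term, Benjamini-Hochberg over all rows at 0.05). Single members were also compared by exact permutation within slide series, with p-values that are not adjusted, and relations across livers by 100000 permutations. The fit was tested on simulated data. Precision is limited by the number of arrays.

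Values were given in full for Nfe2l2, Keap1, Nqo1, Gclc, Gclm, Txnrd1 and Srxn1 and, as fewer than 6 members had an unadjusted p under 0.05, for the 6 with the smallest p. The full values of Por were added after its pairs had been seen. Of the wider pathway, the 6 genes with the smallest p were named. The members and the lists were chosen with earlier results of these data known. Gene names followed the RefSeq gene table of GRCm38.p6 and probe positions the array's mm9 annotation. Alternatives covered background correction, scaling, the dim-probe filter, covariates, blocks, the variance model, the choice of probes and the arrays left out.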

Additional observations from a re-analysis of the deposited data

Results flagged for a closer look

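Among 72 sets of 10 values (36 members in 2 groups; 1 set had 9), 6 held a liver whose gap to its nearest neighbour was large against the whole range of its group. The share of such sets over all rows was not worked out, so the 6 are not shown to be particular to the members. Each set also pools the 2 slide series. The share of the range taken by the gap was 0.502 for Nfe2l2 in responders, where responder 7 was highest at 3.33 and the next stood at 3.01. It was 0.648 for Gclm in responders, where responder 7 was lowest at 1.01 and the next stood at 1.88, and 0.481 for Prdx5 in responders, where responder 9 was lowest at 5.06. Non-responder 10 was the lowest non-responder in 11 of the 36 members, followed by non-responder 5 in 9. How often each liver was lowest over all rows was not worked out, so these counts are not shown to be particular to the members. The gap of non-responder 10 was large in 3 of the 11. Its share was 0.589 for Ephx1 (3.67, next 4.37), 0.508 for Aldh1a1 (6.28, next 7.22) and 0.474 for Mgst1 (8.40, next 8.73). Without that liver the difference between the groups was 0.03 for Ephx1 in place of 0.15, 0.12 for Aldh1a1 in place of 0.31 and -0.07 for Mgst1 in place of -0.01.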

How the results depend on the processing

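Over 37 alternatives of the group comparison, 20 of which left out 1 array, 0 genes were called at an adjusted p under 0.05, over all rows, the members and the wider pathway alike, and leaving out 1 array gave 0 to 0. The interaction with slide series gave 0 called members throughout, also with each array left out (0 to 0). The count of members that differed between slide series was 9, ran from 6 to 10 with 1 array left out, and was 1 with normexp correction. Relations with Nqo1 that passed numbered 29 of 34 with normexp and 0 otherwise. Passing pairs of members numbered 8, against 327 with normexp, 26 with median scaling and 4 with the authors' deposited values. Normexp narrowed the interquartile range to under 80% of that after plain subtraction on 4 arrays, 3 of them responders. The lowest ratio of these ranges was 0.0255, so at least 1 array lost nearly all of its spread. The normexp counts given here include that array. With normexp the median difference of the members was -0.39, with 3 members higher.

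A difference no larger than its SE was counted as having no direction to turn. By that rule 17 values turned, of which 13 were themselves within their own SE and so give no opposite direction. In the first slide series alone the sign turned for Cbr3 (0.066 ± 0.11, SE), Mgst3 (0.023 ± 0.25) and Nqo1 (0.058 ± 0.19). With normexp it turned for Aldh1a1 (-0.20), Aldh1a7 (-0.25), Cbr3 (0.034), Ephx1 (-0.34), Gclc (-0.14), Gclm (-0.10), Gpx1 (-0.37), Gss (-0.21), Keap1 (-0.26), Msra (-0.40), Nqo1 (0.10), Prdx5 (-0.37), Prdx6 (-0.45) and Txnrd2 (-0.035). Among these only Gpx1, Msra, Prdx5 and Prdx6 were past their SE (0.34, 0.36, 0.36 and 0.35). The normexp values include the arrays of narrowed spread, and the cause of the turns was not tested. The members at an unadjusted p under 0.05, 3 in all (7.97% of all rows), numbered 10 with array weights (9.8% of all rows), 9 without non-responder 4 (9.15%), 7 without non-responder 8 (8.59%) or responder 6 (9.87%), 5 without non-responder 6 (8.13%) or 9 (8.65%) or responder 7 (8.53%), and 1 without non-responder 10 (6.68%).

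Whether the number in the titles pairs the samples was not settled. Same-numbered samples' deviations correlated between -0.18 and 0.59, and differently numbered samples were not compared, so that range cannot decide it. With a replicate block on that number, 0 members and 0 genes over all rows passed, the members at an unadjusted p under 0.05 numbered 10 (10.6% of all rows), and the smallest adjusted p among the members was 0.218. Slide as a random block gave a correlation of 0.0367 and 0 calls.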
